A study of Mus musculus with 4 samples.

Results

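Heterotrimeric G proteins and the regulators of G protein signalling (RGS proteins) were followed in the dentate gyrus, the granule cell field of the hippocampus, of handled young male C57BL/6J mice. The genes were taken by name: every non-control probe set (a group of oligonucleotides on the array that targets a transcript) whose annotation gave exactly 1 gene symbol starting with Gna, Gnb, Gng, Gngt or Rgs and a further digit or letter of that family. This found 63 of 12422 non-control probe sets, for 40 of 8251 singly named genes. They were 26 probe sets of 14 alpha subunit genes, 7 of 5 beta subunit genes, 9 of 7 gamma subunit genes and 20 of 13 RGS genes. The remaining probe set was that of Gnasas1, an antisense RNA of the Gnas locus that the name rule also takes and that is no subunit.

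The 4 samples were control mice that were handled and given nothing else. Total RNA was taken at 1, 2, 4 and 6 h after the last shock of experimental animals of the same study, and those shocked animals were not analysed here. There was 1 single-channel array for each hour, so values at a given hour carry no error of their own, and each mean ± SD runs over the 4 arrays (n = 4). The number of mice behind an array, and any pooling, is missing from the labels. The p-values therefore measure only the spread between these samples, which may be technical. No genotype other than C57BL/6J is given, and no transgene. Of 10 granule cell markers, 7 were on the array, and all 7 had a probe set that passed the brightness filter used here (a mean log2 intensity of at least 6.66), among them Prox1, Calb1 and Dsp.

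A G protein is a trimer of an alpha subunit, which binds guanine nucleotide, and a tightly joined beta and gamma pair. An activated receptor makes alpha exchange GDP for GTP, after which alpha and the beta-gamma pair act on enzymes and ion channels. RGS proteins speed the hydrolysis of GTP by alpha and so end the signal. In hippocampal neurons these proteins carry the effects of glutamate, GABA, monoamine, acetylcholine and peptide receptors.

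Values are the deposited intensities on a linear scale, and an intensity does not rank transcript levels between genes because probes bind with different strength. Values under 16.4, the 10th percentile of non-control values, were set to that floor before log2 was taken. A probe set passed the brightness filter when its mean log2 value over the 4 arrays reached the 40th percentile of non-control probe sets, 6.66. Of the 63 probe sets 41 passed, for 26 of the 40 genes, and the brightest and dimmest of these had mean intensities of 38909 and 112. In bulk tissue, fewer cells of a type and less RNA per cell cannot be told apart.

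The 1 h array differed in RNA measures from the later ones, which bears on every value at 1 h. The ratio of 3' to 5' signal of the Gapdh control transcript was 4.88 at 1 h and 1.13, 1.33 and 1.24 at 2, 4 and 6 h. The same ratio for beta-actin was 2.51 at 1 h and 1.83, 2.20 and 1.97 at 2, 4 and 6 h. Over all 7453 probe sets that passed the filter, 394 were at least 2-fold lower at 1 h than the mean of the other 3 arrays (5.29%) and 134 at least 2-fold higher (1.8%). The part of RNA quality in any 1 h value below was not tested.

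Gnas encodes the alpha subunit of Gs, which stimulates adenylyl cyclase. Its probe set 93271_s_at gave intensities of 43439.6, 36786, 38789.7 and 36621 at 1, 2, 4 and 6 h. The 1 h value was the highest, and the later 3 lay within 1.06-fold of each other. Other Gnas probe sets were dim. 92672_at averaged 112 ± 18.7 (SD, n = 4), and 102082_at read 77.8, 101, 19.2 and 16.4 and did not pass the filter. The Gnas locus makes several transcripts from alternative first exons, and the files do not say which of them each probe set detects. Gnasas1, which is transcribed from the opposite strand of this locus, read 55.3, 44, 23.5 and 33.5 and did not pass either.

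The Gi, Go and Gz alpha subunits, most of which inhibit adenylyl cyclase, had 11 probe sets above the filter, of 5 genes. Gnao1 encodes Go alpha, an abundant alpha subunit of neurons. Its probe set 103843_at read 14262, 11421, 12387 and 12390.3 at 1, 2, 4 and 6 h. Gnai2 averaged 12276 ± 1347, 4976 ± 845 and 2047 ± 438 on 3 probe sets, and all 3 were highest at 1 h, by 0.27, 0.34 and 0.55 log2 units over the mean of the other arrays. Gnai1 read 2208, 2369, 2139 and 2427 on 104412_at, 1 of the 5 steadiest probe sets of the families (SD 0.09 log2 units). Gnai3 averaged 1301 ± 261, with higher values at 2 and 6 h than at 1 and 4 h.

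Gnaz, the gene of Gz alpha, which hydrolyses GTP slowly and is not blocked by pertussis toxin, had 1 probe set. It read 25.5 at 1 h, near the floor, and 419.7, 326 and 439.6 at 2, 4 and 6 h. No other member stood so far apart in an array: its 1 h value differed by -3.94 log2 units from the mean of the others, and by -2.55 with an offset of 50 in place of the floor. The later 3 arrays spanned 1.35-fold. No second probe set of Gnaz was on the array to set beside it.

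The Gq and G11 alpha subunits activate phospholipase C beta. Gna11 read 1383, 1233, 1142 and 1139.5 on 102196_at, with the highest value at 1 h. On 103411_at it read 204 at 1 h and 892, 1008 and 854 later. Its probe sets thus stood on opposite sides at 1 h, with differences of 0.24 and -2.17 log2 units from the mean of the other arrays. Gnaq averaged 145 ± 34, and read 108 to 186.5 in the 4 arrays.

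The G12 and G13 alpha subunits form a family of their own. All 4 of their probe sets, of 2 genes, were lower at 1 h than the mean of the other arrays, as were 45.4% of all probe sets above the filter. The differences were -0.41 to -0.68 log2 units. Gna12 read 628, 892, 828 and 822 on 97226_at at 1, 2, 4 and 6 h. Its second probe set 97227_at read 102, 210.4, 89.7 and 191, with 1 and 4 h low and 2 and 6 h high. That was the only probe set of the 41 that spanned at least 2-fold over the 2, 4 and 6 h arrays (2.35-fold), where 8.22% of all probe sets above the filter did. Gna13 read 388.5, 614, 605.5 and 654 on 100514_at and averaged 212 ± 62.1 on 104316_at.

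Alpha subunits of sensory or blood cells were dim. Gnat1 and Gnat2, the transducins of rods and cones, read 40.5, 24, 44.8 and 25.5, and 24.6, 22.7, 12.7 and 58.8. Gna15, an alpha subunit of blood-forming cells, read 44.6, 55.6, 118 and 83.4. Gna14 lay under the floor in all 4 arrays, at 4.8 to 12.5. Of 10 photoreceptor marker genes on the array 1 passed the filter, Crx, and the intensity summed over all probe sets of the list was 752 to 858. Of 8 blood and immune cell marker genes on the array 2 passed, Hba-a1 and Cd79a, and the list's summed intensity was 2225 to 3846, most of it from Hba-a1. The part of such cells in these values was not tested.

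Several alpha genes lie next to each other in the genome with 1 of the pair above the filter and its neighbour below it. In the RefSeq annotation of GRCm38.p6 no protein-coding gene lies between Gna11 and Gna15, between Gnaq and Gna14, or between Gnai3 and Gnat2, and 1 lies between Gnai2 and Gnat1. The promoters of the first 3 pairs are shown so that those of neighbours can be read beside each other. Each runs 5′ to 3′ from 250 bases before to 50 after the start of the gene (RefSeq, GRCm38.p6), and capitals mark the CG dinucleotide, which reads the same on both strands.
Gna11, chr10:81545113-81545412, minus strand: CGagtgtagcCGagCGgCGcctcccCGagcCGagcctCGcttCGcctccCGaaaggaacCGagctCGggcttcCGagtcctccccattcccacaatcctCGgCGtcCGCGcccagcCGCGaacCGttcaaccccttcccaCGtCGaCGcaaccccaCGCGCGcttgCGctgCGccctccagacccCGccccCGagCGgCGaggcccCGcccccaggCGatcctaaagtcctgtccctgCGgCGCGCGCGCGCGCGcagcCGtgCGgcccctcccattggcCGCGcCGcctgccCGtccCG
Gna15, chr10:81524176-81524475, minus strand: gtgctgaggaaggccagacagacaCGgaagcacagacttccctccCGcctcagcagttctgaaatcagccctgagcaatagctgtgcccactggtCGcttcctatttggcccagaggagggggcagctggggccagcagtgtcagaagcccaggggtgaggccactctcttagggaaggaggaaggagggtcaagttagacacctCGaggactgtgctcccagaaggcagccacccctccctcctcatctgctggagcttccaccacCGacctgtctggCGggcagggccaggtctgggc
Gnaq, chr19:16132434-16132733, plus strand: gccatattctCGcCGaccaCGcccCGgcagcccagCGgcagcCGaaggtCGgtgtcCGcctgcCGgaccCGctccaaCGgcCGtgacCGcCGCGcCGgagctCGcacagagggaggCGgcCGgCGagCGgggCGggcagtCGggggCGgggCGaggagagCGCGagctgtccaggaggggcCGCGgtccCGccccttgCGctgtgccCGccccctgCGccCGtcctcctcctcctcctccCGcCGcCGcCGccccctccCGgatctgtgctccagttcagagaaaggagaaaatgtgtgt
Gna14, chr19:16435417-16435716, plus strand: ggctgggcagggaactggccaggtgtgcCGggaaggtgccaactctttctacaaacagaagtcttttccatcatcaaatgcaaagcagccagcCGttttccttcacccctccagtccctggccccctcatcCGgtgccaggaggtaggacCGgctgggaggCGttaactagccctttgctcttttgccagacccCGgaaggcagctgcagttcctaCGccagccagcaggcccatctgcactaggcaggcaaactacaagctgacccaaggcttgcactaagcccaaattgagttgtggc
Gnai3, chr3:108146103-108146402, minus strand: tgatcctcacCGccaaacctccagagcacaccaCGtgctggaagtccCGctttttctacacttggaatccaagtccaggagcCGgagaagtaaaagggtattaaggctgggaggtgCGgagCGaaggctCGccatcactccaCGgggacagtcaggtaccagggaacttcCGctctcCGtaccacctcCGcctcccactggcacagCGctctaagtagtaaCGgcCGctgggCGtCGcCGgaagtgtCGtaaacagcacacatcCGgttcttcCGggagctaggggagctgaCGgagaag
Gnat2, chr3:108092816-108093115, plus strand: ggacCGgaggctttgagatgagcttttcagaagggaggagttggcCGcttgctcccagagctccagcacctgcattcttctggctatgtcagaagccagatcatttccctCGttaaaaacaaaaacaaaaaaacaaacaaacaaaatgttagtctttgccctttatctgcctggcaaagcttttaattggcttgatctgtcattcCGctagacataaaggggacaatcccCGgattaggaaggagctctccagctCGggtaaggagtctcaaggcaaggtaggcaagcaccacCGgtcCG

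The promoter of Gna11 held 48 CG dinucleotides, and that of Gna15 held 6. Of all 32851 promoters of this length in the table, 1.22% held as many as Gna11 and 56.4% as many as Gna15. Gnaq had 39 and Gna14 had 7, numbers reached by 4.45% and 52.1% of all promoters. Gnai3 had 21 and Gnat2 had 8, reached by 24.8% and 48.65%. The pair Rgs5 and Rgs4, also neighbours, ran the other way: Rgs5, above the filter on 1 probe set, had 6, and Rgs4, below it, had 13. Gna13, above the filter, had 40, and its neighbour Rgs9, below it, had 19. Rgs8 and Rgs16, neighbours that were both above the filter, had 12 (in the richest promoter of Rgs8) and 22. Of the 40 member genes 30 were in the table. The 23 with a probe set above the filter had a median of 31 CG dinucleotides in their richest promoter (2 to 53), and the 7 without had 13 (6 to 29). Over all 6572 genes named on the array and found in the table the median was 20. Those genes were not split by the filter, so whether the same gap holds among them was not examined. These counts describe the sequences and were not tested.

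**Figure D1:**
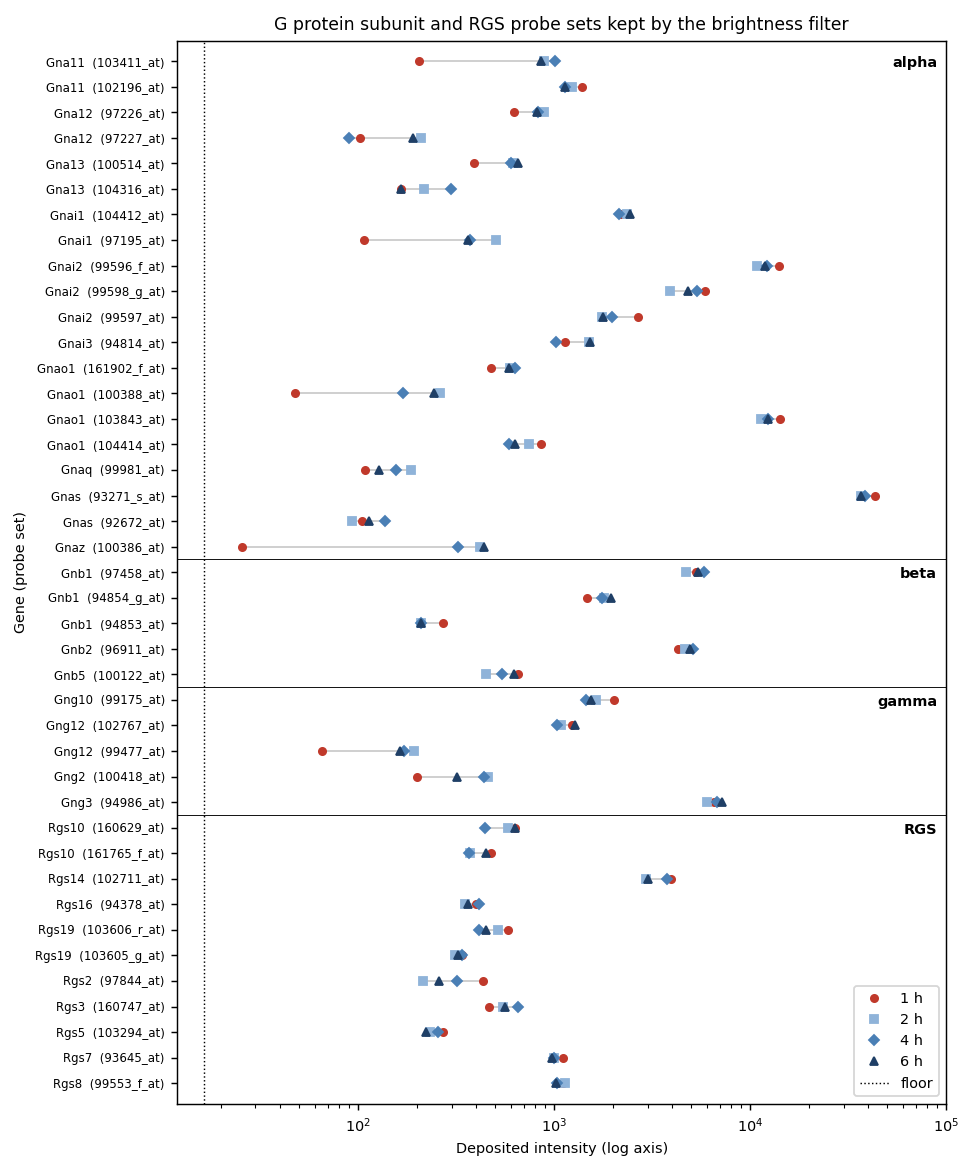
Deposited intensity (log axis) of each of the 41 probe sets above the brightness filter, by class, with 1 symbol for each of the 1, 2, 4 and 6 h arrays and a dotted line at the floor of 16.4. Most rows are narrow, and in 6 rows the 1 h symbol stands far to the left of the others, farthest for Gnaz at 25.5.

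Beta subunits form a propeller that carries the gamma subunit and binds the inactive alpha subunit. Gnb1 read 5280.3, 4736, 5839.9 and 5424 on 97458_at at 1, 2, 4 and 6 h. Its other probe sets differed in direction at 1 h. 94853_at read 272.5 at 1 h and 210.4, 210.7 and 210.1 later, and 94854_g_at read 1470.2 at 1 h and 1804, 1748 and 1952 later. Gnb2 averaged 4760.4 ± 378. Gnb5, a divergent beta subunit that pairs with RGS proteins of the R7 family, averaged 568 ± 90.3 and was lowest at 2 h, at 452. Gnb3, the beta subunit of cones, and Gnb4 averaged 91.1 ± 41.9 and 84.2 ± 37.5 and did not pass the filter.

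Gamma subunits anchor the pair in the membrane through a lipid tail. Gng3, a neuronal gamma subunit, read 6585, 6036.5, 6815 and 7166, and was among the 5 steadiest probe sets (SD 0.10 log2 units). Gng10 averaged 1657 ± 248 and was highest at 1 h. Gng2, another gamma subunit of brain, read 199 at 1 h and 463, 439 and 319 later. Gng12 read 1239, 1081, 1029.7 and 1287 on 102767_at, and on 99477_at 65.5 at 1 h and 193, 173 and 163 later. Below the filter were Gng4, which read 27, 156, 25.2 and 95.8, Gng11, whose probe sets averaged 111 ± 59.1 and 9.55 ± 3.61, and Gngt2, the gamma subunit of cones, which averaged 19.9 ± 13.4.

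RGS proteins fall into families by the domains around the RGS domain. The R4 family consists of small proteins with little else, and 5 of its 6 genes on the array had a probe set above the filter. Rgs8 read 1109, 1138, 1031 and 1021 at 1, 2, 4 and 6 h, with an SD of 0.08 log2 units. Rgs2, which acts mainly on Gq, read 437 at 1 h and 215, 319 and 257.5 later, and was the only probe set of the 41 above the filter at least 2-fold lower in a later array than at 1 h, at 2 h. Rgs3 averaged 559 ± 78.3 and Rgs16 383 ± 30.6 on its brighter probe set. The other Rgs16 probe set, 161609_at, read 145.5, 147.5, 22.4 and 94 and did not pass. Rgs5, which marks pericytes of brain vessels, averaged 246 ± 22.2 on 103294_at and 83.6 ± 14.9 on 96180_at. Of the 12 endothelial and mural marker genes on the array 8 passed the filter, and the list's summed intensity was 2293, 2524, 2750.4 and 1752 at the 4 hours. Those that passed were Kdr, Cldn5, Pecam1, Flt1, Acta2, Tagln, Vtn and Anpep. Pdgfrb, Kcnj8, Abcc9 and Tek did not pass, and Pdgfrb read 28.9, 108, 133 and 134. The part of vessel cells in the Rgs5 values was not tested. Rgs4, a neuronal member of the family, read 30.6, 115, 47.2 and 87.1 and did not pass.

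The R7 family is stable only when bound to Gnb5. Rgs7 read 1114, 996, 1004 and 981, an SD of 0.08 log2 units, and its later 3 values lay within 1.02-fold. The other R7 genes did not pass the filter: Rgs6 averaged 43 ± 15.3, Rgs9, known from striatum and photoreceptors, 34.9 ± 20, and Rgs11 62.7 ± 15.8 and 22.9 ± 16 on 2 probe sets. In the R12 family, Rgs14, which limits plasticity in the neighbouring CA2 field, read 3951, 2956, 3782 and 3013, with 1 and 4 h above 2 and 6 h. Of the 5 CA pyramidal marker genes on the array 4 passed the filter, and the list's summed intensity was 3205, 5278, 4229 and 4817 at the 4 hours. The low sum at 1 h came mostly from Nnat, which read 713, 2627, 2062 and 2477. Wfs1 and Htr5b were lowest at 2 h and Bok at 4 h, and Pcp4, below the filter, was highest at 1 h. The part of CA pyramidal cells in the Rgs14 values was not tested. Rgs10, also of this family and known from microglia and neurons, averaged 573 ± 87.8 and 417 ± 55.8, and another probe set, at 35.8 ± 18, did not pass. Rgs19, of the RZ family, read 583, 518, 412 and 449.7 on 103606_r_at and 339, 313, 340.2 and 324.5 on 103605_g_at, the steadiest probe set of all 41 (SD 0.06 log2 units), and its other probe set, at 16.8 ± 6.13, did not pass. Identifiers ending in _f_at, _s_at, _r_at or _g_at, 9 of the 41, may detect related genes too or use a reduced number of probes, which makes them less sure than the others.

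The median SD of the member probe sets over the 4 arrays was 0.22 log2 units, or 1.16-fold, beside 0.24 over all 7453 probe sets above the filter, and 27 of the 41 lay below that wider median. Without the 1 h array the medians were 0.13 and 0.18. By class, the median SD was 0.27 for alpha, 0.17 for beta, 0.21 for gamma and 0.19 for RGS probe sets.

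No member passed the test of a trend over the hours. The trend was a straight line of log2 intensity on the hour, fitted with limma over all 7453 probe sets with Benjamini-Hochberg adjustment, and 0 of 41 members passed an adjusted p of 0.05, where 1 of all passed (0.0134%). The adjusted p of members was 0.874 or more in limma, and 0 of 41 had an unadjusted p under 0.05, beside 4.4% of all. A p that misses the threshold does not show that levels were steady. In simulated data of this size, slopes somewhat larger than that of any member but Gnaz did not pass it either. The spreads in those data were drawn from all probe sets above the filter and were not matched to the members. Among cell type markers, the choroid plexus list rose in summed intensity, with 679, 816, 1758 and 3590.1 at 1, 2, 4 and 6 h. Most of this rise came from its marker Ttr, which read 224.6, 443.6, 1258.4 and 3009. The list did not move together. Folr1 was also highest at 6 h on its probe set above the filter, with 65.5, 63.1, 117.6 and 266.9. Kl was highest at 1 h, with 279.8, 109.4, 194.5 and 190.1. The Folr1 probe set below the filter was also highest at 1 h, at 68.9. Aqp1, below the filter, was highest at 2 h on its brighter probe set and at 6 h on its other. On this list 3 of 4 genes passed the filter, and its part in the member slopes was not tested. Slopes were positive for 22 members and negative for 19, with a median of 0.0082 log2 units per hour, beside -0.0063 over all probe sets. The largest positive slopes were those of Gnaz, 0.61 ± 0.27 (SE) log2 units per hour (limma adjusted p = 0.874), and of Gnao1 on 100388_at, 0.32 ± 0.18. The largest negative alpha slopes were -0.09 ± 0.05 for Gnao1 on 104414_at and -0.08 ± 0.05 for Gnai2 on 99597_at, so that Gnao1 had both signs. Among beta subunits they were 0.06 ± 0.04 for Gnb1 on 94854_g_at, 0.04 ± 0.04 for Gnb2 and -0.06 ± 0.07 for Gnb1 on 94853_at. Among gamma subunits, Gng12 on 99477_at had 0.18 ± 0.14, Gng2 0.08 ± 0.11 and Gng10 -0.07 ± 0.04. Among RGS genes, Rgs3 had the only positive slope of 11, 0.06 ± 0.06, and the largest negative ones were -0.08 ± 0.05 for Rgs19 on 103606_r_at and -0.08 ± 0.09 for Rgs2. Without the 1 h array the slope of Gnaz was 0.02, and those of Gnao1 on 100388_at (-0.027), Gnai2 on 99597_at (0.0020), Gng12 (-0.060), Gng2 (-0.134) and Rgs2 (0.065) changed sign.

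Compared with the 1 h array, 7 of 41 members were at least 2-fold higher at 2 h (17.1%, beside 6.35% of all probe sets above the filter) and 1 was at least 2-fold lower (3.45% of all). At 4 h, 6 were higher (14.6%, beside 5.68% of all) and 0 lower (2.74% of all). At 6 h, 5 were higher (12.2%, beside 5.69% of all) and 0 lower (3.65% of all). Gnaz, Gnao1 on 100388_at, Gnai1 on 97195_at, Gna11 on 103411_at and Gng12 on 99477_at were higher at all 3 hours, Gng2 at 2 and 4 h, and Gna12 on 97227_at at 2 h. With 1 array an hour there is no test of these differences. The 3 comparisons share the 1 h array, whose Gapdh ratio was 4.88, and so are not independent of each other.

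At 1 h, 6 of 41 members were at least 2-fold lower than the mean of the other 3 arrays (14.6%, beside 5.29% of all) and 0 were at least 2-fold higher (1.8% of all). At 2 h, 3 stood at least 2-fold away (3.39% of all), at 4 h 0 (2.82% of all) and at 6 h 1 (2.76% of all). Those at 2 h were Gnaz, Gnao1 on 100388_at and Gnai1 on 97195_at, and that at 6 h was Gnaz, all of them also low at 1 h, an array that enters the mean used. Without the 1 h array, 0 were apart at 2 h, 1 at 4 h and 0 at 6 h.

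**Figure D2:**
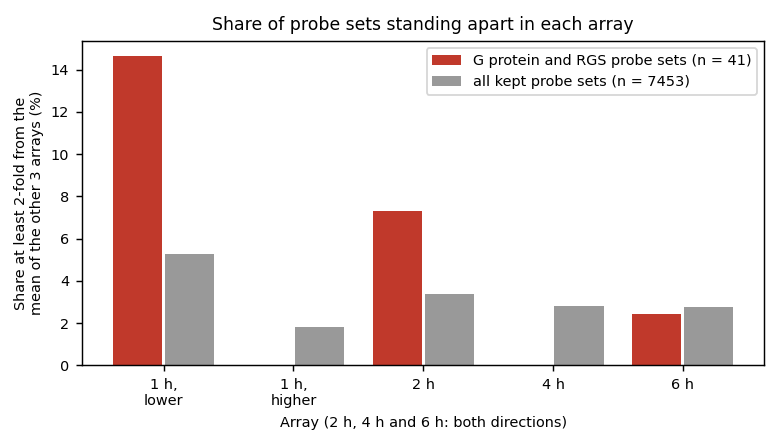
Share of probe sets (%) at least 2-fold from the mean of the other 3 arrays, by array, for the 41 G protein and RGS probe sets and for all 7453 probe sets above the filter. The member bar is taller for lower values at 1 h (14.6% and 5.29%) and at 2 h, and there is no member bar for higher values at 1 h or at 4 h.

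The 6 low probe sets at 1 h were of subunit genes: 4 of alpha subunits and 2 of gamma subunits. Gnai1 on 97195_at read 107 at 1 h and 507, 374 and 362 later, a difference of -1.94 log2 units from the mean of the others. Gnao1 on 100388_at read 47.6 at 1 h and 262, 169.7 and 243 later, a difference of -2.22. The difference was -2.17 for Gna11 on 103411_at, -1.42 for Gng12 on 99477_at and -1.01 for Gng2. The 1 h value lay below the later 3 in each of them, which their choice as low at 1 h makes likely by itself. With an offset of 50 in place of the floor, Gng12 and Gng2 came within 2-fold (differences of -0.97 and -0.86 log2 units), and Gng2 did so without the 2 h or the 4 h array as well.

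Other probe sets of the same genes stayed within 2-fold at 1 h. Above the filter, 11 genes had several probe sets, and 4 of these, Gnao1, Gnai1, Gna11 and Gng12, had 1 that was at least 2-fold lower at 1 h. Their other such probe sets differed by -0.35 (Gnao1 on 161902_f_at, also lowest at 1 h) to 0.39 log2 units. At 1 h the brightest Gnao1 probe set differed by 0.24 log2 units from the mean of the others, and 100388_at by -2.22. The gap between highest and lowest probe set at 1 h was 2.60 log2 units for Gnao1, 2.41 for Gna11, 1.87 for Gnai1 and 1.56 for Gng12. For the other 7 genes it was 0.06 for Rgs10 to 0.69 for Gnb1. When the probe sets of a gene were averaged, 3 of 26 genes were at least 2-fold lower at 1 h. Among them were Gnaz and Gng2, which had 1 probe set each above the filter, so that averaging could not change them. The share over all genes was not counted in that run. The sources used here do not place the probe sets within their transcripts.

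**Figure D3:**
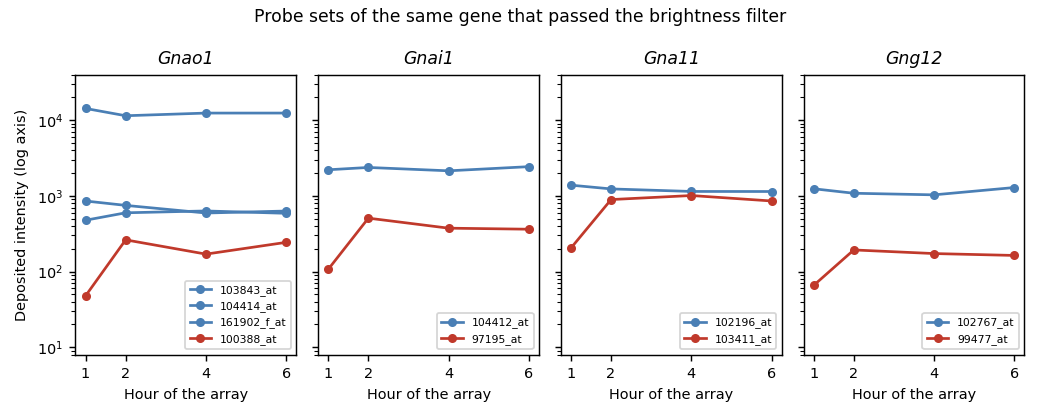
Deposited intensity (log axis) against the hour of the array for all probe sets above the filter of Gnao1, Gnai1, Gna11 and Gng12. Red lines are the probe sets at least 2-fold lower at 1 h than the mean of the other 3 arrays, and blue lines the other probe sets of the same gene, which run nearly level.

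The classes differed in how their probe sets lay at 1 h. Of 11 RGS probe sets, 10 were higher at 1 h than the mean of the other arrays and 1 was lower, with a median of 0.20 log2 units. Of 20 alpha probe sets, 7 were higher and 13 lower, with a median of -0.29. Beta and gamma subunits were split, with 2 higher and 3 lower in each class. Over all probe sets above the filter 54.6% were higher, with a median of 0.05. The difference between classes, and the part of the 1 h array's RNA measures in it, was not tested.

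**Figure D4:**
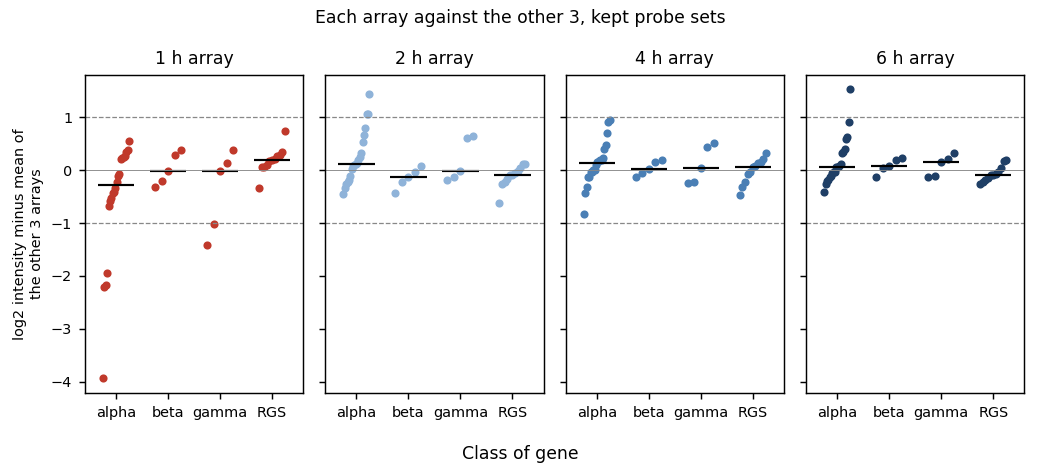
Difference in log2 intensity between each array and the mean of the other 3, for alpha, beta, gamma and RGS probe sets above the filter (points) with the class median (bar) and dashed lines at 2-fold. In the 1 h panel the alpha points reach down to -3.94, while the RGS points lie close to 0 and mostly above it.

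Effectors and partners of the G proteins, from a list of 50 symbols, had 38 probe sets of 29 genes on the array, and 27 probe sets of 21 genes passed the filter. In limma 0 of the 27 passed the trend test over the hours, and 13 slopes were positive and 14 negative. An unadjusted p under 0.05 was found for 2 (7.41%, beside 4.4% of all). They were Kcnj9 on 98332_at with a slope of 0.37 and Adcy9 on 92527_at with -0.12 log2 units per hour. On their other probe sets above the filter the slopes were -0.017 for Kcnj9 (161799_r_at), of opposite sign, and -0.028 for Adcy9 (98356_at). The brightest partners were Adcy2, an adenylyl cyclase, at 2540 ± 199.9, and Rap1gap, which turns off the small GTPase Rap1, at 2473 ± 346. Next came Adcy9, another adenylyl cyclase, at 1818 ± 89.4. All 6 adenylyl cyclase probe sets above the filter, of 5 genes, had negative slopes of -0.03 to -0.12 log2 units per hour, as did 3984 of all 7453, and none passed the test. At 1 h 2 partners were at least 2-fold lower than the mean of the other arrays (5.29% of all) and 1 was higher (1.8% of all). Kcnj9, a potassium channel subunit opened by the beta-gamma pair, read 59.5 at 1 h and 213, 227 and 288 later on 98332_at, and 278, 389, 579 and 249 on 161799_r_at. Arrb1, the beta-arrestin that uncouples receptors from G proteins, read 419 at 1 h and 1019.8, 855.5 and 775 later on 100473_at, and 677, 591, 557 and 557 on 162481_f_at. Gpsm3, which binds inactive Gi alpha, read 289 at 1 h and 153, 106 and 183 later on 94442_s_at. Its other probe set, 94441_at, was below the filter and read 157, 83.4, 20.9 and 26.9, also highest at 1 h. As with the subunits, the second probe sets of Kcnj9 and Arrb1 lay within 2-fold at 1 h. That of Kcnj9 was also lower at 1 h than the mean of the others (-0.46 log2 units), and that of Arrb1 was higher (0.25). The Gpsm3 probe sets shared a direction.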

How the data were processed

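Single-channel oligonucleotide arrays measured total RNA in 4 control samples. The authors deposited intensity values on a linear scale, 1 row per probe set. The software behind them is not stated. The trimmed mean, an average over all rows without the extreme values at either end, was 499.9 in every array. The arrays were thus on a common scale as deposited. Array medians were 169 to 184. Values were used as deposited. Of 12488 rows 66 were controls. Gene symbols are those of the platform annotation, which gives 1 symbol for 10833 probe sets, several for 396 and none for 1193, and only the first kind was named. Probe sets of a gene were kept apart. Trends were fitted with limma 3.58.1 in R 4.3.3 (lmFit, eBayes with a trend on mean intensity, 2 residual degrees of freedom, two-sided). In simulated data of this size, slopes between the largest member slope, that of Gnaz, and the next largest did not pass the test. Most slopes larger than that of Gnaz did. The test may therefore miss slopes of the size of the other members. The simulated spreads were those of all probe sets above the filter in random order. The outcome thus does not show which slope a member of a given spread would need to pass. The number of arrays limits the precision.

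Named with values in every array were probe sets at least 2-fold apart in any array, the brightest of each subfamily, the 5 of lowest SD and outliers by Dixon's test; slopes were given for the 2 largest in each direction of each class. Values of further members, and the promoters shown, were chosen after values were seen. Members, lists and tests were chosen with earlier results of these data known.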

Additional observations from a re-analysis of the deposited data

Results flagged for a closer look

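In 5 of the 41 member probe sets (12.2%) the farthest array was beyond the 95% critical value of Dixon's test, beside 8.63% of all 7453 probe sets above the filter. Chance alone flags about 1 in 20 groups. All 5 had the 1 h array as the far value, as did 390 of the 643 such probe sets among all (60.7%). The Gapdh 3' to 5' ratio of that array was 4.88, and its part in these values was not tested. The gap divided by the range was 0.894 for Gnaz, 0.896 for Gna11 on 103411_at, 0.845 for Gng12 on 99477_at and 0.852 for Gna13 on 100514_at, each lowest at 1 h. It was 0.989 for Gnb1 on 94853_at, which was highest at 1 h, at 272.5, where the later arrays read 210.1 to 210.7.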

How the results depend on the processing

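No member and no partner passed the trend test in limma under any alternative run. The member median slope was -0.0064 to 0.029 log2 units per hour in the alternatives that give it in that unit. Counts of members moved most with the filter on dim probe sets. The shares over all probe sets were not counted in the alternative runs, nor with an array left out. The counts therefore do not set members apart from other probe sets. With no filter, 4 of 63 members were at least 2-fold lower at 2 h than at 1 h. At 4 h 7 were lower, and at 6 h 10 were higher and 1 lower. Against the mean of the other arrays, 3 were higher at 1 h, and 11, 5 and 4 stood apart at 2, 4 and 6 h. Over the later arrays 14 spanned 2-fold. With the filter at the 60th percentile, 3, 3 and 2 were higher at 2, 4 and 6 h than at 1 h, 3 were lower at 1 h, 1 and 0 stood apart at 2 and 6 h, and 0 spanned 2-fold. With the probe sets of a gene averaged, 3, 3 and 1 of 26 genes were higher than at 1 h. In that run 3 were lower at 1 h, 1 stood apart at 2 h and 0 spanned 2-fold. With an offset of 50, 0 were lower at 2 h than at 1 h, 0 stood apart at 2 h and 0 spanned 2-fold. With equal medians or quantile normalization, 2 stood apart at 6 h.

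Leaving out each array in turn, members apart numbered 0 to 4 at 2 h, 1 to 2 at 4 h and 0 to 3 at 6 h, 5 to 6 were lower at 1 h, 0 to 1 spanned 2-fold, and the median SD was 0.13 (without the 1 h array) to 0.25. Slopes that changed sign without the 1 h array ranged from -0.027 to 0.48 for Gnao1 on 100388_at, -0.12 to 0.0020 for Gnai2 on 99597_at, -0.060 to 0.39 for Gng12 on 99477_at, -0.13 to 0.32 for Gng2 and -0.15 to 0.065 for Rgs2. The causes were not tested. Each hour has 1 array, and dim probe sets near the floor have the least certain ratios. No paired analysis was possible because there is 1 group of samples.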
